A study of Bos indicus x Bos taurus with 17 samples.

Results

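Amino acid transporters of the solute carrier (SLC) families SLC1, SLC3, SLC6, SLC7, SLC36, SLC38 and SLC43 were examined in liver and skeletal muscle of bovine fetuses at about day 105 of gestation. The members were all genes whose symbol is one of these family names followed by A and a number, which gave 58 genes of the 21048 gene rows in the count tables: 19 of SLC6, 12 of SLC7, 11 of SLC38, 7 of SLC1, 4 of SLC36, 3 of SLC43 and 2 of SLC3. All fetuses were F1 hybrids of a Nelore (Bos taurus indicus) and a Holstein (Bos taurus taurus) parent and were recorded as healthy. The Control-AI group was conceived by artificial insemination (2 fetuses, numbered 2 and 4 in the labels), and the ART-Normal group by assisted reproductive technology with embryos produced in vitro (4 fetuses, numbered 1 to 4). The study kept this group for fetuses under an upper limit of body weight drawn from Control-AI, and the sources used here give a weight for ART-Normal 1 to 3 only, so that ART-Normal 4 belongs to it by its label. Each fetus gave 1 liver and 1 muscle library, so that 12 libraries were compared.

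Amino acids do not cross membranes unaided, and each of these families carries its own range of them. Members of SLC1 move glutamate, aspartate or small neutral amino acids, members of SLC6 draw on the sodium and chloride gradients, and most SLC38 members take up glutamine, alanine and other neutral amino acids with sodium. Most SLC7 light chains exchange one amino acid for another and reach the cell surface by pairing with an SLC3 heavy chain, while SLC36 and SLC38A9 work largely on lysosomal and other inner membranes. The liver takes up glutamine, alanine and cationic amino acids for urea, glucose and plasma protein synthesis, and growing muscle uses amino acids for protein synthesis.

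Total counts were 18454088 to 43339598 in the liver libraries and 12433300 to 23578362 in the muscle libraries. Levels are given as CPM, the count divided by the TMM-scaled total of its library and multiplied by 1000000, with 6 libraries in each tissue, and were tested only within a gene because coding lengths were not used. Levels of different genes were ranked to choose some of the genes named, without regard to length. The labelled tissues bore their markers. The 8 skeletal muscle markers summed to 16130 to 26510 CPM in muscle and 6.88 to 32.9 CPM in liver, and the 6 hepatocyte markers to 23660 to 323200 CPM in liver and 24.5 to 346.5 CPM in muscle. Control-AI 2 stood apart in both tissues. Its liver held 146900 CPM of AHSG against 3918 to 8197 CPM in the other livers, and its muscle held the highest sum of hepatocyte markers, with 145.4 CPM of AHSG against 1.62 to 19.4 CPM. Not every hepatocyte marker was raised: in its liver TTR (2199 CPM) and APOA1 (1556 CPM) lay within the range of the other livers. Both libraries of this fetus also had the lowest total count of their tissue. Values without it are given beside the results that it moved most.

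The first comparison was liver against muscle. Of the 58 members, 46 reached a mean of 1 CPM over the 12 libraries and were tested with the two-sided quasi-likelihood test of edgeR, with p-values adjusted over all genes tested (adjusted p, threshold 0.05). At this threshold 25 members were higher in liver and 15 were higher in muscle, which together is 87.0% of those tested, and 6 did not pass. Among all 14742 genes tested, 79.7% passed, 39.6% towards liver and 40.0% towards muscle. The count of members that passed is therefore close to that of genes at large, and the sizes of their changes were larger: the median absolute log2 fold change was 1.92 for the members and 0.97 for all genes. A change of at least 4-fold that passed the test was seen in 22 of 46 members, 15 towards liver and 7 towards muscle, against 28.1% of all genes, 13.6% towards liver and 14.6% towards muscle. The 6 liver and 6 muscle values did not overlap in 30 of 46 members, against 62.4% of all genes. The direction was the same in 6 of 6 fetuses for 39 of the 40 members that passed. In tissues made of many cell types, fewer cells of a type and less RNA per cell cannot be told apart.

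**Figure D1:**
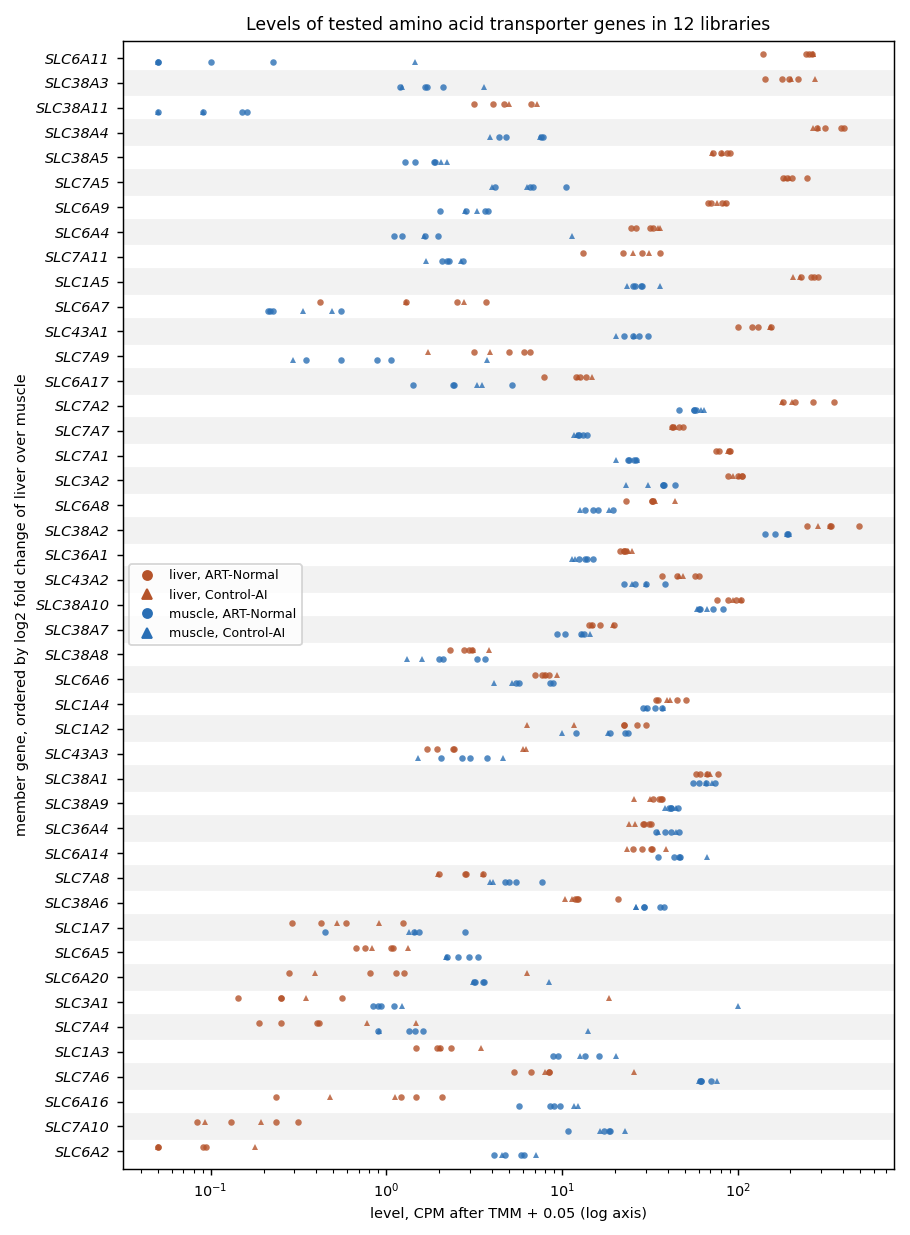
Level of 45 of the 46 tested members in the 12 libraries, with CPM after TMM plus 0.05 on a log axis, liver in brown and muscle in blue, circles for ART-Normal and triangles for Control-AI. Members at the top, led by SLC6A11 and SLC38A3, are higher in liver and those at the bottom, led by SLC6A2 and SLC7A10, are higher in muscle, while the Control-AI 2 triangles of SLC3A1 lie far to the right of the other points of their tissue.

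Among the carriers of glutamine and of small neutral amino acids in SLC38, 4 of the 5 genes of System N and System A were higher in liver. Both System N carriers, which move glutamine, asparagine and histidine in exchange for protons, were higher in liver. SLC38A3, the System N carrier best known from hepatocytes (chr22:50131902-50146721 on ARS-UCD1.2, gene ID 326576), was at 142 to 276 CPM (median 199) in liver and 1.15 to 3.54 CPM (median 1.64) in muscle, a 112-fold difference (log2 fold change = 6.80 ± 0.24 (SE), adjusted p = 9.05e-12). The lowest liver value was far above the highest muscle value. SLC38A5 (chrX:86584142-86593407) was at 71.6 to 89.9 CPM (median 81.1) in liver and 1.22 to 2.16 CPM (median 1.83) in muscle (log2 fold change = 5.53 ± 0.14 (SE), adjusted p = 6.2e-13). SLC38A5 is also known from red cell precursors, and the summed level of 10 erythroid markers was 5361 to 24190 CPM in liver and 89.2 to 652.4 CPM in muscle, whose part in the SLC38A5 difference was not tested.

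The 3 System A carriers, which take up alanine, serine and glutamine with sodium, did not behave alike. SLC38A4, an imprinted gene in mouse and known for its expression in liver (chr5:33400489-33486055, gene ID 527476), was at 270.2 to 406 CPM (median 299) in liver and 3.84 to 7.77 CPM (median 6.11) in muscle, a 53.9-fold difference (log2 fold change = 5.75 ± 0.21 (SE), adjusted p = 1.43e-11). SLC38A2, the System A carrier that is induced when amino acids run short, was at 249 to 494 CPM (median 336) in liver and 143 to 195 CPM (median 191) in muscle, a 1.89-fold difference with no overlap (log2 fold change = 0.92 ± 0.15 (SE), adjusted p = 7.22e-05). SLC38A1 did not pass the test: it was at 57.7 to 77.5 CPM (median 67.1) in liver and 55.8 to 73.9 CPM (median 65.8) in muscle, and the ranges of both tissues nearly coincided (log2 fold change = 0.03 ± 0.09 (SE), adjusted p = 0.799). These 3 genes stand in 1 stretch of chromosome 5, with 364.6 kb between SLC38A4 and SLC38A2 and 55.4 kb between SLC38A2 and SLC38A1.

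Of the other 6 SLC38 members, 3 were higher in liver, 2 were higher in muscle, and SLC38A8 did not pass (log2 fold change = 0.41). SLC38A11, a little studied member of the family, was at 3.11 to 7.14 CPM (median 4.76) in liver and 0 to 0.111 CPM in muscle, where all 6 libraries together held 6 counts against 825 in liver. Its ratio, scaled for library size, was 107.1 with a 95% interval of 49 to 292.7 that covers counting error only. SLC38A10, an intracellular carrier, was at 76.05 to 105 CPM (median 95.9) in liver and 58.3 to 82.3 CPM (median 63.6) in muscle (log2 fold change = 0.50 ± 0.11 (SE), adjusted p = 0.000781), and SLC38A7, a lysosomal glutamine carrier, had a log2 fold change of 0.45 (adjusted p = 0.00695). The SLC38A7 ranges just overlapped, at 14.26 to 19.75 CPM in liver and 9.30 to 14.31 CPM in muscle. With libraries scaled by their totals alone SLC38A7 no longer passed (log2 fold change = 0.31, adjusted p = 0.0623). SLC38A6 pointed to muscle, with 10.4 to 20.9 CPM (median 11.9) in liver and 26.3 to 38.3 CPM (median 29.3) in muscle, without overlap (log2 fold change = -1.24 ± 0.15 (SE), adjusted p = 3.25e-06).

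SLC38A9, the lysosomal arginine sensor that signals to mTORC1, had, with SLC1A4, the smallest change among the members that passed. It was at 25.6 to 36.9 CPM (median 34.3) in liver and 38.5 to 45.9 CPM (median 41.9) in muscle, and every muscle library lay above every liver library (log2 fold change = -0.35 ± 0.09 (SE), adjusted p = 0.00208). The 1.28-fold difference no longer passed when the ART-Normal fetuses alone were fitted (log2 fold change = -0.21, adjusted p = 0.0663).

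The heavy chains bring SLC7 light chains to the cell surface. SLC3A2, the partner of most of them (chr29:41158503-41199498, gene ID 507107), was at 87.7 to 107 CPM (median 102) in liver and 23.2 to 43.9 CPM (median 37.7) in muscle, a 2.85-fold difference (log2 fold change = 1.51 ± 0.11 (SE), adjusted p = 1.85e-08). Each liver library held more than each muscle library. SLC3A1, the partner of SLC7A9 in the uptake of cystine and cationic amino acids, was low in 5 of the 6 fetuses, at 0.0923 to 0.51 CPM in liver and 0.79 to 1.18 CPM in muscle, while Control-AI 2 held 18.5 CPM in liver and 100.2 CPM in muscle. It did not pass the test (log2 fold change = -2.06 ± 0.98 (SE), adjusted p = 0.0692). With fetus as a block in the model it passed with the same log2 fold change (-2.06 ± 0.24 (SE), adjusted p = 2.75e-05), and without Control-AI 2 it fell under the filter and was not tested.

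All 7 light chains passed, 4 towards liver and 3 towards muscle. SLC7A5, which imports leucine and other large neutral amino acids in exchange for glutamine (chr18:13298159-13326788, gene ID 282369), was at 182 to 249 CPM (median 194) in liver and 3.96 to 10.5 CPM (median 6.39) in muscle, a 32.1-fold difference (log2 fold change = 5.0 ± 0.21 (SE), adjusted p = 5.52e-11). SLC7A11, the cystine and glutamate exchanger, was at 13.1 to 36.2 CPM (median 26.8) in liver and 1.62 to 2.67 CPM (median 2.20) in muscle (log2 fold change = 3.54 ± 0.24 (SE), adjusted p = 6.9e-09). SLC7A7, which exports cationic amino acids, was at 42.1 to 48.7 CPM (median 43.3) in liver and 11.6 to 13.8 CPM (median 12.4) in muscle (log2 fold change = 1.82 ± 0.08 (SE), adjusted p = 5.41e-11). For all 3 of these genes liver was high and the tissues did not overlap. SLC7A9, the light chain that pairs with SLC3A1, overlapped between the tissues through Control-AI 2: its muscle library held 3.69 CPM against 0.245 to 1.01 CPM in the other muscles and 1.67 to 6.56 CPM in liver (log2 fold change = 2.15 ± 0.63 (SE), adjusted p = 0.00662). Without Control-AI 2 the log2 fold change was 2.95 ± 0.36 (SE), with an adjusted p of 2.8e-06.

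The 3 light chains that were higher in muscle were SLC7A10, SLC7A6 and SLC7A8. SLC7A10, a carrier of serine, glycine and alanine (chr18:43644105-43660414, gene ID 100126273), was at 10.7 to 22.7 CPM (median 17.9) in muscle and 0.0338 to 0.266 CPM in liver, where a library held 1 to 12 counts (log2 fold change = -6.96 ± 0.37 (SE), adjusted p = 5.94e-10). SLC7A6, which exchanges cationic for neutral amino acids, was at 60.6 to 76.3 CPM (median 61.7) in muscle and 5.28 to 25.6 CPM (median 8.18) in liver (log2 fold change = -2.79 ± 0.28 (SE), adjusted p = 4.76e-07). The highest liver value, 25.6 CPM, was that of Control-AI 2, and without this fetus the log2 fold change was -3.07 ± 0.14 (SE). SLC7A8, an exchanger of large and small neutral amino acids, was at 3.84 to 7.61 CPM (median 4.82) in muscle and 1.92 to 3.49 CPM (median 2.78) in liver, a 1.84-fold difference (log2 fold change = -0.88 ± 0.23 (SE), adjusted p = 0.00347). Light chains that carry overlapping sets of amino acids thus pointed in both directions, SLC7A5 to liver and SLC7A8 to muscle, and SLC7A7 to liver and SLC7A6 to muscle.

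Among the 5 genes of the cationic amino acid carriers, which work without a heavy chain, 3 were tested. SLC7A2, a carrier of arginine and lysine known from liver (chr27:19714924-19786678), was at 178 to 355 CPM (median 208) in liver and 46.4 to 64.3 CPM (median 57.3) in muscle, a 4.05-fold difference (log2 fold change = 2.02 ± 0.17 (SE), adjusted p = 7.34e-08). SLC7A1, the widely expressed arginine carrier, was at 75.4 to 90.1 CPM (median 89.3) in liver and 20.3 to 26.8 CPM (median 24.9) in muscle (log2 fold change = 1.80 ± 0.09 (SE), adjusted p = 2.8e-10). Neither gene overlapped between tissues. SLC7A4 passed towards muscle (log2 fold change = -2.43), where Control-AI 2 held 14.01 CPM against 0.848 to 1.56 CPM in the other 5, and without that fetus the gene was under the filter.

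In SLC1, both neutral exchangers were higher in liver, and of the 5 glutamate and aspartate carriers 3 were tested, of which 2 were higher in muscle and 1 did not pass. SLC1A5, the glutamine, alanine and serine exchanger (chr18:53864326-53875875, gene ID 282355), was at 207 to 288 CPM (median 246) in liver and 23.4 to 36.3 CPM (median 27.2) in muscle, an 8.84-fold difference (log2 fold change = 3.14 ± 0.12 (SE), adjusted p = 2.94e-11). Its relative SLC1A4 was at 34.3 to 50.8 CPM (median 40.6) in liver and 28.9 to 37.4 CPM (median 32.2) in muscle, which overlapped (log2 fold change = 0.32 ± 0.11 (SE), adjusted p = 0.0211), and no longer passed when libraries were scaled by their totals alone (adjusted p = 0.201), a scaling that moved the median log2 fold change of all genes by -0.13 towards muscle. Without ART-Normal 4 its adjusted p was 0.0853. SLC1A3, a glutamate carrier known from glia, was at 8.85 to 20.4 CPM (median 13.1) in muscle and 1.42 to 3.42 CPM (median 1.97) in liver, without overlap (log2 fold change = -2.65 ± 0.23 (SE), adjusted p = 1.06e-07). SLC1A7, another glutamate carrier, was low in both tissues and passed towards muscle (log2 fold change = -1.28, adjusted p = 0.0223), with adjusted p-values of 0.0691 and 0.0701 without ART-Normal 2 and 3, and it was under the filter without ART-Normal 1. SLC1A2, the main glutamate carrier of brain astrocytes, did not pass: it was at 6.27 to 30.01 CPM (median 22.6) in liver and 9.96 to 23.6 CPM (median 18.5) in muscle (log2 fold change = 0.07 ± 0.25 (SE), adjusted p = 0.804).

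The SLC6 genes held large differences in both directions. Of the carriers of GABA, betaine, taurine and creatine, SLC6A11, a GABA carrier (chr22:54859524-54984793, gene ID 616071), was at 139 to 269 CPM (median 260.1) in liver. In muscle it had 0, 0, 4 and 1 counts in ART-Normal 1 to 4, 19 counts in Control-AI 2 and 0 in Control-AI 4 (log2 fold change = 10.21 ± 0.53 (SE), adjusted p = 4.69e-10). Without Control-AI 2 its log2 fold change was 12.23 ± 0.38 (SE). The creatine carrier SLC6A8 was at 23.2 to 43.9 CPM (median 32.8) in liver and 12.6 to 19.5 CPM (median 15.5) in muscle, a 2.07-fold difference towards liver (log2 fold change = 1.05 ± 0.15 (SE), adjusted p = 1.46e-05). The taurine carrier SLC6A6 was at 7.01 to 9.28 CPM (median 7.94) in liver and 4.08 to 8.86 CPM (median 5.51) in muscle, which overlapped, and it did not pass (log2 fold change = 0.38 ± 0.20 (SE), adjusted p = 0.0946).

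Among the SLC6 carriers of amino acids, 3 were higher in liver and 4 were higher in muscle. SLC6A9, the glycine carrier that feeds heme synthesis in red cell precursors (chr3:102033426-102065123), was at 68.02 to 85.95 CPM (median 79.1) in liver and 1.97 to 3.75 CPM (median 3.01) in muscle, a 25.8-fold difference (log2 fold change = 4.69 ± 0.15 (SE), adjusted p = 4.06e-12). The erythroid marker sums given beside SLC38A5 apply here as well. SLC6A17, a vesicular carrier of neutral amino acids, had a log2 fold change of 2.03, and SLC6A7, a proline carrier, one of 2.78. The other glycine carrier, SLC6A5, was low and pointed to muscle, at 2.14 to 3.29 CPM (median 2.33) in muscle and 0.621 to 1.28 CPM (median 0.899) in liver (log2 fold change = -1.47 ± 0.26 (SE), adjusted p = 0.000152). SLC6A16, an orphan member of the family, was at 5.65 to 12.3 CPM (median 9.35) in muscle and 0.185 to 2.02 CPM (median 1.12) in liver (log2 fold change = -3.13 ± 0.44 (SE), adjusted p = 1.68e-05). SLC6A14, a carrier of neutral and cationic amino acids, was at 35.3 to 67.1 CPM (median 46.4) in muscle and 23.5 to 39.3 CPM (median 30.3) in liver, with overlapping ranges (log2 fold change = -0.64 ± 0.14 (SE), adjusted p = 0.00102). AGTR2, a gene that it overlaps on the other strand, was at a mean of 26.9 CPM in muscle and 8.36 CPM in liver, and its part was not tested. The proline carrier SLC6A20 also passed towards muscle (log2 fold change = -1.59, adjusted p = 0.0196), and its adjusted p was 0.000118 without Control-AI 2, whose liver value of 6.27 CPM was above the 3.06 to 3.56 CPM of the other muscles. Without ART-Normal 1, 2 or 3 its adjusted p was 0.0582, 0.0673 and 0.0533.

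The 3 monoamine carriers of SLC6 are best known from nerve endings and platelets. SLC6A4, the serotonin carrier (chr19:21290406-21323579), was at 24.8 to 36.3 CPM (median 32.4) in liver, and in muscle at 1.06 to 1.93 CPM in 5 fetuses and 11.4 CPM in Control-AI 2 (log2 fold change = 3.66 ± 0.44 (SE), adjusted p = 3.33e-06). The fold change rose on leaving out Control-AI 2 (log2 fold change = 4.40 ± 0.17 (SE)). Markers of megakaryocytes and platelets, 5 genes, summed to 337.6 to 591 CPM in liver and 4.85 to 8.12 CPM in muscle, and Control-AI 2 did not stand apart in muscle for them. Their part in the SLC6A4 difference was not tested. SLC6A2, the noradrenaline carrier, was at 4.06 to 7.10 CPM (median 5.24) in muscle, with 677 counts in all, and had 6 counts over the 6 liver libraries. Its scaled ratio was 144.8 (95% interval 66.2 to 396.1, counting error only). The 5 markers of Schwann cells and nerve summed to 445.3 to 630.3 CPM in muscle and 5.76 to 11.8 CPM in liver, and their part was not tested either.

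The 2 proton-coupled carriers tested pointed in opposite directions, and 2 of the 3 SLC43 genes were higher in liver. SLC36A1, which exports small amino acids from lysosomes, was at 21.3 to 25.2 CPM (median 22.8) in liver and 11.4 to 14.9 CPM (median 12.97) in muscle (log2 fold change = 0.83 ± 0.09 (SE), adjusted p = 1.91e-06). SLC36A4 was the reverse, at 24.01 to 32 CPM (median 29.1) in liver and 34.3 to 46.4 CPM (median 40.3) in muscle (log2 fold change = -0.49 ± 0.10 (SE), adjusted p = 0.000415). The tissues did not overlap for either gene. SLC43A1, a carrier of branched-chain and aromatic amino acids (chr15:80743126-80774244), was at 100.4 to 155 CPM (median 142) in liver and 20.3 to 30.7 CPM (median 25.6) in muscle, a 5.33-fold difference (log2 fold change = 2.41 ± 0.13 (SE), adjusted p = 9.59e-10). SLC43A2, which carries the same amino acids, was at 37.1 to 60.6 CPM (median 47.7) in liver and 22.6 to 38.6 CPM (median 27.97) in muscle (log2 fold change = 0.78 ± 0.15 (SE), adjusted p = 0.00023). SLC43A3, the family member known as a carrier of purine bases, did not pass (log2 fold change = 0.04 ± 0.35 (SE), adjusted p = 0.921).

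**Figure D2:**
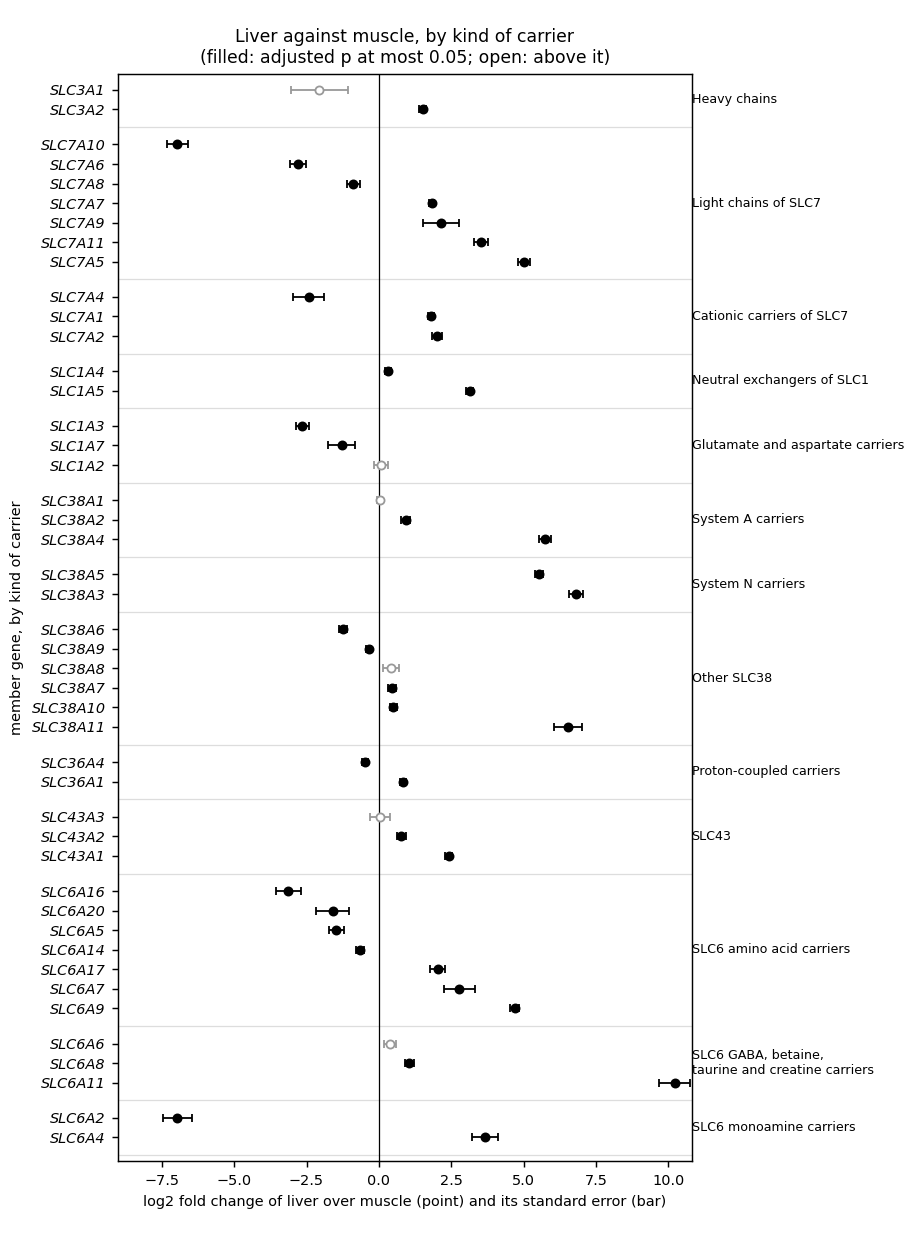
Log2 fold change of liver over muscle for 45 of the 46 tested members, as points with standard errors as bars, grouped by kind of carrier, with filled points for an adjusted p of at most 0.05 and open points above it. System N and the neutral SLC1 exchangers lie wholly to the right of 0 (higher in liver), the SLC7 light chains and the SLC6 carriers lie on both sides, from -6.96 to 10.21, and the 6 open points include SLC38A1 and SLC1A2 near 0 and SLC3A1 with the widest bar.

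The 12 members under the filter reached at most 3.98 CPM in any library, a value of SLC1A1 in the muscle of Control-AI 2. They include the kidney and intestine carriers SLC6A18, SLC6A19 and SLC36A2, the dopamine carrier SLC6A3, the cerebellar glutamate carrier SLC1A6 and the neuronal SLC7A14. No member was at 0 counts in all 12 libraries. A mean of at least 1 CPM was reached in both tissues by 38 members, in liver only by 3 and in muscle only by 7. Those reaching it in liver only were SLC6A11, SLC6A7 and SLC38A11.

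Several members are neighbours in the genome, and 11 pairs lie within 500 kb of each other, a limit chosen after the values were seen. In 6 of these pairs both genes were tested. The log2 fold changes had the same sign in 3 pairs, although SLC38A1 and SLC43A3, which are in 2 of them, did not pass the test, and opposite signs in the other 3. Those of opposite sign included SLC7A9 (2.15) with SLC7A10 (-6.96) on chromosome 18, and SLC7A7 (1.82) with SLC7A8 (-0.88) on chromosome 10.

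The second comparison was conception, ART-Normal against Control-AI, within each tissue. Genes were tested where all libraries of a group reached 5 CPM, which kept 30 members in liver and 25 in muscle. The CPM filters of all tests used library totals without TMM scaling, unlike the levels printed here. No member passed the threshold in either tissue. At an unadjusted p under 0.05 there were 2 members in liver and 3 in muscle, against 8.29% and 9.00% of all genes tested. Among all genes, 0% passed the adjusted threshold in liver (0 of 11304) and 0.00855% in muscle (1 of 11695). With 4 fetuses against 2 there are 15 possible splits, so that an exact permutation test of a single gene could not go below p = 0.067. The likelihood ratio test and DESeq2 each called 1 member in liver, SLC1A2, and none in muscle. Of all genes, they called 88 and 56 in liver and 113 and 106 in muscle. Calls in fits that leave 1 control are given below, beside those of all genes, with the dependence on the processing.

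SLC1A2, the glutamate carrier at chr15:65766817-65936269 (gene ID 541119), had the largest difference in liver among the 30 members tested. It was at 22.6, 30.01, 22.6 and 26.7 CPM in ART-Normal 1 to 4, and at 6.27 (Control-AI 2) and 11.7 CPM (Control-AI 4). The 4 ART-Normal values lay together and above both controls (log2 fold change = 1.49 ± 0.27 (SE), unadjusted p = 0.00029, adjusted p = 0.289). By CPM without TMM scaling, SLC1A2 met the 5 CPM filter in the ART-Normal group alone, where it was higher. With a filter of a mean of 1 CPM, the quasi-likelihood test gave the same log2 fold change, with an adjusted p of 0.275. The hepatocyte markers summed to 23660 to 39260 CPM in the ART-Normal livers and to 46760 and 323200 CPM in those of the controls, and their part in this difference was not tested. The likelihood ratio test gave an adjusted p of 0.000261 and DESeq2 one of 1.77e-05. Without Control-AI 2 the log2 fold change was 1.14 ± 0.26 (SE), with an adjusted p of 0.691, where the lone control left was assumed to vary like the ART-Normal group, as in all such fits below. In muscle the groups overlapped, with 22.9, 23.6, 12.02 and 18.8 CPM in ART-Normal and 9.96 (Control-AI 2) and 18.2 CPM (Control-AI 4). The difference between the tissues in this change had a log2 value of 1.04 ± 0.45 (SE), unadjusted p = 0.0386, adjusted p = 0.884.

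The groups did not overlap for 9 of 30 members in liver, against 18.5% of all genes. Apart from SLC1A2, the highest of these were SLC38A6 and SLC38A9. SLC38A6 was at 12.2, 20.9, 11.8 and 12.1 CPM in ART-Normal liver, and at 11.3 (Control-AI 2) and 10.4 CPM (Control-AI 4) (log2 fold change = 0.40 ± 0.27 (SE), adjusted p = 0.63), and without ART-Normal 2 its log2 fold change was 0.15. SLC38A9, the lysosomal sensor, was at 36.6, 35.7, 36.9 and 33.02 CPM in ART-Normal, and at 25.6 (Control-AI 2) and 31.6 CPM (Control-AI 4) (log2 fold change = 0.31 ± 0.15 (SE), adjusted p = 0.585), with a log2 fold change of 0.19 without Control-AI 2. The lowest were SLC6A8, SLC6A4 and SLC6A11, each at its highest in the controls. The creatine carrier SLC6A8 was at 23.2, 32.9, 32.4 and 32.6 CPM in ART-Normal, and at 43.9 (Control-AI 2) and 33.7 CPM (Control-AI 4) (log2 fold change = -0.35 ± 0.19 (SE), adjusted p = 0.585), with a log2 fold change of -0.13 without Control-AI 2. The serotonin carrier SLC6A4 was at 32.99, 31.8, 26.4 and 24.8 CPM in ART-Normal, and at 36.3 (Control-AI 2) and 35.2 CPM (Control-AI 4) (log2 fold change = -0.30 ± 0.16 (SE), adjusted p = 0.585). For SLC6A11 the ART-Normal values were 139, 244, 264 and 256 CPM, and the controls were at 269 (Control-AI 2) and 267 CPM (Control-AI 4) (log2 fold change = -0.25 ± 0.23 (SE), adjusted p = 0.704). Only ART-Normal 1 was clearly apart from the controls for that gene, and without this fetus its log2 fold change was -0.07.

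The second member with an unadjusted p under 0.05 in liver was SLC7A6, which was at 8.35, 5.28, 6.65 and 8.41 CPM in ART-Normal, and at 25.6 (Control-AI 2) and 8.001 CPM (Control-AI 4). Control-AI 4 lay within the ART-Normal range, so that the difference rested on Control-AI 2 (log2 fold change = -1.22 ± 0.39 (SE), unadjusted p = 0.0118, adjusted p = 0.517), and without it the log2 fold change was -0.14 ± 0.34 (SE). SLC43A3, which the 5 CPM filter left out and which was looked at after its values were seen, showed both controls apart in liver. It was at 2.35, 2.37, 1.89 and 1.65 CPM in ART-Normal, and at 5.98 (Control-AI 2) and 6.20 CPM (Control-AI 4). Without TMM scaling, as the filter takes it, the Control-AI 2 value of this gene was under 5 CPM. With a filter of a mean of 1 CPM instead, which tested 46 members in each tissue and called 0, its log2 fold change was -1.56 ± 0.30 (SE), with an unadjusted p of 0.0006 and an adjusted p of 0.275. With that filter SLC3A1 (log2 fold change = -5.09) and SLC7A4 (-1.96) also differed by more than SLC1A2 in liver, and neither passed.

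In muscle the groups did not overlap for 8 of 25 members, against 15.5% of all genes. SLC3A2, the common heavy chain, was at 38.2, 37.8, 43.9 and 37.7 CPM in ART-Normal, and at 23.2 (Control-AI 2) and 31.04 CPM (Control-AI 4) (log2 fold change = 0.53 ± 0.17 (SE), unadjusted p = 0.00904, adjusted p = 0.394), with a log2 fold change of 0.33 ± 0.18 (SE) without Control-AI 2. All 4 ART-Normal muscles were above both controls, and in liver the groups overlapped, with 87.7, 101, 106 and 107 CPM in ART-Normal and 93.5 (Control-AI 2) and 102 CPM (Control-AI 4). The taurine carrier SLC6A6 was at 5.61, 5.4, 8.51 and 8.86 CPM in ART-Normal, and at 5.16 (Control-AI 2) and 4.08 CPM (Control-AI 4) (log2 fold change = 0.63 ± 0.28 (SE), adjusted p = 0.555). Here ART-Normal 1 and 2 lay close to the controls and ART-Normal 3 and 4 above them. By CPM without TMM scaling, SLC6A6 met the 5 CPM filter in the ART-Normal group alone, where it was higher. SLC38A6 was at 35.9, 38.3, 29.3 and 29.4 CPM in ART-Normal, and at 26.3 (Control-AI 2) and 26.3 CPM (Control-AI 4) (log2 fold change = 0.34 ± 0.17 (SE), adjusted p = 0.587).

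Among the members whose groups did not overlap in muscle, the lowest log2 fold changes were those of SLC6A16, SLC6A14 and SLC7A2. SLC6A16 was at 5.65, 9.74, 8.51 and 8.96 CPM in ART-Normal, and at 11.7 (Control-AI 2) and 12.3 CPM (Control-AI 4) (log2 fold change = -0.55 ± 0.23 (SE), unadjusted p = 0.0395, adjusted p = 0.524). SLC6A14 was at 46.7, 43.2, 46.2 and 35.3 CPM in ART-Normal, and at 67.1 (Control-AI 2) and 46.7 CPM (Control-AI 4) (log2 fold change = -0.41 ± 0.18 (SE), unadjusted p = 0.0456, adjusted p = 0.544), and Control-AI 4 was level with the highest ART-Normal value after rounding. Without Control-AI 2 its log2 fold change was -0.14 ± 0.19 (SE). The arginine carrier SLC7A2 was at 56.4, 57.9, 56.6 and 46.4 CPM in ART-Normal, and at 64.3 (Control-AI 2) and 61.5 CPM (Control-AI 4) (log2 fold change = -0.21 ± 0.14 (SE), adjusted p = 0.706), and without ART-Normal 4 its log2 fold change was -0.14. SLC38A6 was higher in ART-Normal in both tissues without overlap, and the difference between the tissues in this change did not pass (difference of the log2 fold changes, liver minus muscle, 0.06 ± 0.32 (SE), unadjusted p = 0.851, adjusted p = 1).

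The difference between the tissues in the change with conception passed for 0 of 46 members and for 0% of all genes. At an unadjusted p under 0.05 there were 7 members, against 5.63% of all genes. The smallest p was that of SLC3A2, with a difference of -0.50 ± 0.19 (SE), unadjusted p = 0.0231, adjusted p = 0.838, where the muscles of the controls were lower and the livers were not. Without Control-AI 2 it was -0.34 ± 0.23 (SE). The values of each fetus for SLC3A2 and the other members named here are shown in the plot by fetus.

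**Figure D3:**
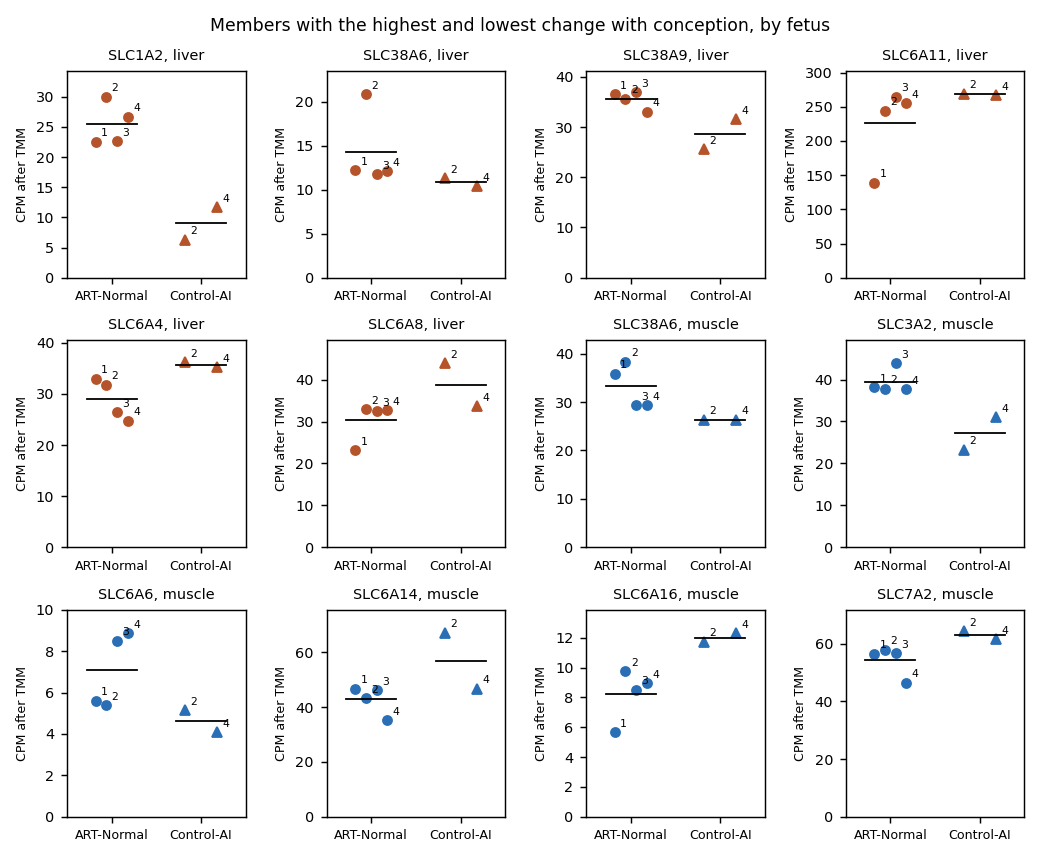
CPM after TMM of the members with the 3 highest and 3 lowest log2 fold changes of ART-Normal over Control-AI in each tissue among those whose groups do not overlap, with 1 point per fetus (its number beside it), a black line at the group mean and a vertical axis from 0. SLC1A2 in liver shows the widest gap, from 22.6 to 30.01 CPM in ART-Normal against 6.27 and 11.7 CPM in Control-AI, and in the other panels except SLC3A2 the gap between the groups is smaller than the range of the ART-Normal values.

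Control-AI 2 held more than 2 times the highest of the other 5 fetuses for 4 of the 45 members that reached 1 CPM in any liver library and 7 of the 47 that did so in muscle. Over all such genes the shares were 4.66% in liver (691 of 14823) and 4.85% in muscle (712 of 14692). These 8 genes were chosen by that mark, and their values are given as a description. SLC3A1 (chr11:26701406-26735017, gene ID 535601) stood apart most, with 18.5 CPM in liver against 0.0923 to 0.51 CPM and 100.2 CPM in muscle against 0.79 to 1.18 CPM. Its muscle library held 1358 counts and its liver library 260. SLC1A1 and SLC6A20 were also above that mark in both tissues of this fetus. SLC1A1, a glutamate and cysteine carrier, was at 1.14 CPM in liver and 3.98 CPM in muscle, where the others reached at most 0.556 and 0.49 CPM. SLC6A20 was at 6.27 CPM in liver against 0.231 to 1.22 CPM and at 8.41 CPM in muscle against 3.06 to 3.56 CPM.

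SLC7A6 passed that mark in liver only, with 25.6 CPM against 5.28 to 8.41 CPM, and SLC7A4, SLC6A4, SLC7A9 and SLC6A11 in muscle only. In that muscle SLC7A4 was at 14.01 CPM against 0.848 to 1.56 CPM, and SLC7A9 at 3.69 CPM against 0.245 to 1.01 CPM. SLC6A11 was at 1.40 CPM against at most 0.176 CPM. In the same muscle library the hepatocyte markers ALB, AFP, AHSG and SERPINA1 were at 80.1, 43.7, 145.4 and 57.2 CPM, against at most 9.92, 9.61, 19.4 and 6.36 CPM in the other muscles. TTR was at 3.54 CPM against at most 0.921 CPM, while APOA1, at 16.5 CPM, lay within the 12.5 to 33 CPM of the others. The part of these markers in the values of SLC6A11, SLC6A4 and SLC7A9, which were higher in liver, was not tested. SLC7A4 and SLC3A1 were lower in the liver of Control-AI 2 than in its muscle. Markers of other cell types were raised in this fetus as well. The 3 smooth muscle markers summed to 58.4 CPM in its liver against 16.8 to 29.4 CPM, and to 79.4 CPM in its muscle against 28.3 to 46.5 CPM, led by MYH11, a smooth muscle myosin, at 56.1 CPM against 16.2 to 27.3 CPM in liver and 45.9 CPM against 6.46 to 9.66 CPM in muscle. Its liver also held the highest sums of the skeletal muscle markers, 32.9 CPM against 6.88 to 9.59 CPM, and of the erythroid markers, 24190 CPM against 5361 to 6461 CPM, while SLC7A6 was at 60.6 to 76.3 CPM in muscle. The part of these cell types in the values of the 8 members was not tested.

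The listed gene lengths are whole gene spans and the counting is not stated to use strand, so a member that overlaps a gene on the other strand may hold some of its reads. This concerns 7 of the 58 members (2701 of 21048 rows overall). SLC3A1 overlaps PREPL over 2276 bp, and PREPL was at a mean of 42.02 CPM in liver and 235.4 CPM in muscle. SLC1A1 overlaps SPATA6L (5.33 and 9.47 CPM), SLC7A6 overlaps SLC7A6OS (27.8 and 21.4 CPM), and SLC7A9 overlaps TDRD12 (1.61 and 8.06 CPM). The other 3 are SLC6A9, SLC6A14 and SLC36A1. SLC6A14, at means of 30.2 CPM in liver and 47.5 CPM in muscle, overlaps AGTR2 (8.36 and 26.9 CPM) and CT83 (0.151 and 0.552 CPM). SLC36A1 overlaps FAT2 (4.80 and 0.29 CPM), and SLC6A9 overlaps CCDC24 (0.404 and 1.69 CPM) and KLF17 (1.27 and 0.129 CPM). Of the 8 members that stood apart in Control-AI 2, SLC6A20, SLC7A4, SLC6A4 and SLC6A11 have no such overlap. The split of reads between overlapping genes was not tested.

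**Figure D4:**
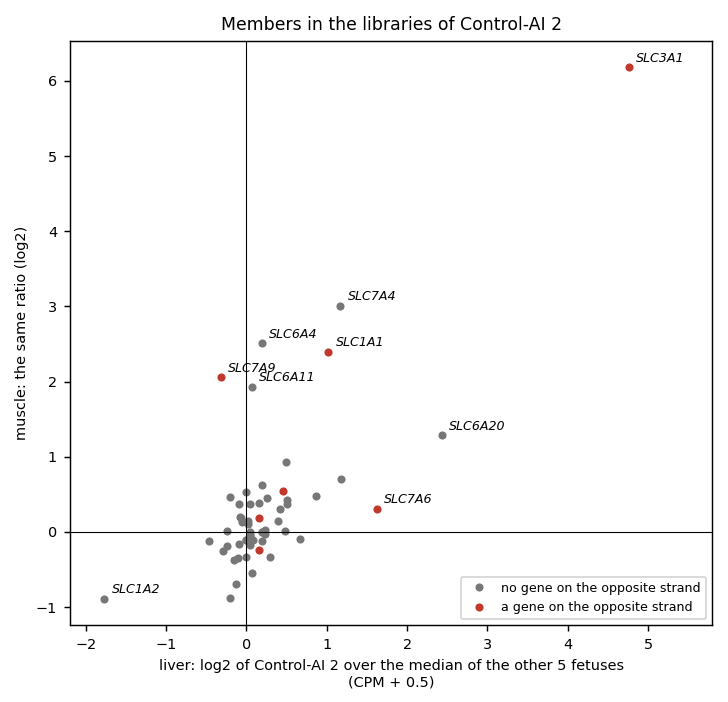
Log2 ratio of Control-AI 2 over the median of the other 5 fetuses (CPM plus 0.5) for 57 of the 58 members, liver on the horizontal axis and muscle on the vertical axis, with red points for members that overlap a gene on the opposite strand. Most members lie near 0 in both tissues, SLC3A1 lies at 4.76 in liver and 6.18 in muscle, SLC7A4, SLC6A4 and SLC6A11 are raised chiefly in muscle, and SLC1A2 lies below 0 in both.

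The spread among the 4 ART-Normal fetuses was described by the coefficient of variation, without a test. Its median was 14.5% for the 31 members with a mean of at least 5 CPM in liver and 12.9% for all 11602 such genes. In muscle it was 13.9% for 29 members and 11.7% for 11772 genes. The steadiest members in liver were SLC36A1 (3.29%), SLC38A9 and SLC36A4, and SLC38A9 was also among the 3 steadiest in muscle with SLC7A7 (5.03%) and SLC7A1. The most variable in liver were SLC7A11 (39.1%), SLC38A6 and SLC7A2. SLC7A11 was at 28.4, 36.2, 22.2 and 13.1 CPM in ART-Normal 1 to 4, and at 25.3 (Control-AI 2) and 31.3 CPM (Control-AI 4), so that the controls fell inside the ART-Normal range. Among the most variable in muscle were SLC7A5 and SLC38A4. SLC7A5 was at 4.12, 6.79, 10.5 and 6.51 CPM, with ART-Normal 3 the highest.

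Other genes of amino acid handling were taken from 3 lists. Cells short of amino acids raise the translation factor ATF4 through the kinase GCN2, and its target genes include carriers such as SLC7A11, SLC38A2 and SLC3A2. Of 20 genes of this response, 19 were tested, 15 were higher in liver and 2 were higher in muscle, against 39.6% and 40.0% of all genes. The median log2 fold change was 1.13, against 0 for all genes. NUPR1, a stress-induced nuclear protein, was at 34.2 to 64.6 CPM in liver and 0.0557 to 0.601 CPM in muscle (log2 fold change = 6.98 ± 0.31 (SE), adjusted p = 7.65e-11). ATF5, a transcription factor of the response, was at 92.2 to 195 CPM in liver and 6.77 to 15.1 CPM in muscle (log2 fold change = 3.54 ± 0.20 (SE), adjusted p = 1.22e-09). CEBPB, another transcription factor, was at 7.98 to 39.7 CPM in liver and 1.11 to 4.21 CPM in muscle (log2 fold change = 3.23 ± 0.35 (SE), adjusted p = 1.31e-06). ASNS, which makes asparagine, was 1 of the 2 genes higher in muscle, at 21.6 to 27.1 CPM in liver and 122 to 168 CPM in muscle (log2 fold change = -2.57 ± 0.10 (SE), adjusted p = 2.72e-11). STC2, a secreted glycoprotein, had no count in any liver library and 5.29 to 9.74 CPM in muscle.

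The genes of amino acid sensing at the lysosome are those by which the Rag GTPases recruit mTORC1. Of 30 tested, 10 were higher in liver and 10 were higher in muscle, against 39.6% and 40.0% of all genes, with a median log2 fold change of -0.06. RRAGD, 1 of the Rag GTPases, was at 2.57 to 4.42 CPM in liver and 100.4 to 112 CPM in muscle (log2 fold change = -4.98 ± 0.12 (SE), adjusted p = 3.27e-13). NPRL3, a subunit of the GATOR complex that restrains them, was at 136 to 242 CPM in liver and 17.98 to 28.8 CPM in muscle (log2 fold change = 3.0 ± 0.15 (SE), adjusted p = 3.73e-10). CASTOR2, of the arginine sensor family, and SESN3, of the leucine sensor family, were higher in muscle, by log2 fold changes of -2.58 and -2.16.

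The third list held 15 symbols of carriers and partners outside the 7 families. TMEM27, which is another name of CLTRN, was not found under that symbol. In the tables were 13 of the 15 symbols, and 9 genes were tested. Of these, 6 were higher in liver and 3 were higher in muscle, where 79.7% of all genes passed in either direction. CLTRN, which brings neutral amino acid carriers to the cell surface in kidney, was at 21.8 to 46.9 CPM in liver and 5.10 to 9.87 CPM in muscle (log2 fold change = 2.24 ± 0.19 (SE), adjusted p = 1.08e-07). The peptide carriers SLC15A1 and SLC15A2 were higher in liver, by log2 fold changes of 5.37 and 2.46. No gene of the 3 lists passed the test for conception in either tissue or for the difference between the tissues.

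**Figure D5:**
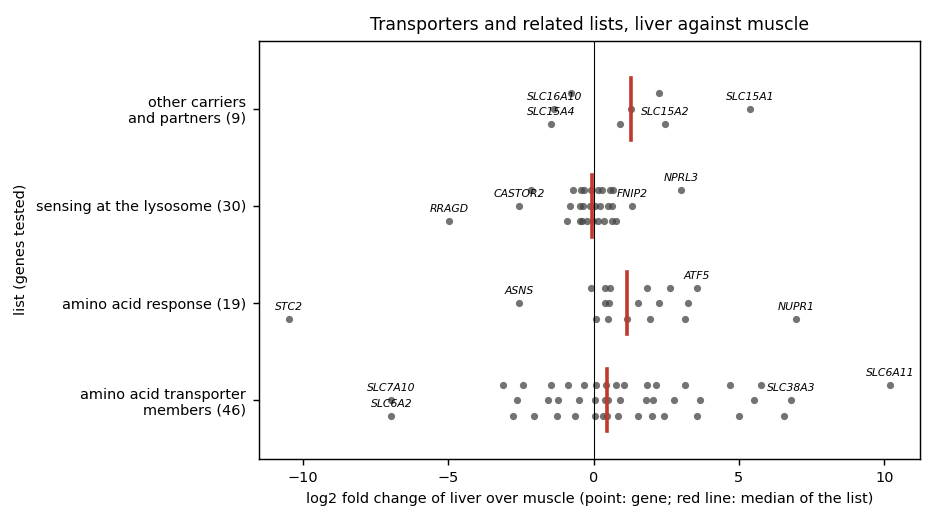
Log2 fold change of liver over muscle for the tested genes of the transporter members (46) and of the lists for the amino acid response (19), sensing at the lysosome (30) and other carriers and partners (9), with a red line at the median of each whole list and 1 gene not drawn in the first list and in the last. The transporters spread from -6.96 to 10.21 around a median of 0.47, the response genes lie mostly to the right with a median of 1.13, and the sensing genes cluster near 0 (median -0.06); the value of STC2 is a fitted one for a gene with no count in liver and is no measured fold.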

How the data were processed

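For each tissue, the authors deposited 1 table of read counts by gene on ARS-UCD1.2, not normalized. The submitters' processing notes name HISAT2 2.1.0, featureCounts and edgeR 3.24.3. The libraries were strand specific, enriched for mRNA and read as 150 bp paired ends; whether counting used strand is not given in the sources used here. The listed length equals the gene span in all 21048 rows, so that introns may have been counted with exons, and 9 gene IDs are listed on more than 1 row. Of the count columns, 7 per tissue (14 in all) matched no sample and were not used. The deposited tables of the authors' comparisons (fold changes and p-values) were not used, and kidney libraries were not analysed here. Groups came from the GEO labels.

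Tests were two-sided and gave log2 fold changes with standard errors, from the counts, with edgeR 4.0.16 in R 4.3.3 (TMM, quasi-likelihood test, Benjamini-Hochberg over all genes tested). Liver against muscle used 12 libraries with conception as a covariate and genes with a mean of at least 1 CPM; conception was tested within 6 libraries per tissue on genes that reached 5 CPM in every library of 1 group or the other, and the interaction in the 12 libraries. The CPM filters of the tests used library totals without TMM scaling. Total counts were 12433300 to 43339598. Counting intervals cover counting error only. The same fetus gave both tissues, and the correlation of its deviations from the group means was 0.09 to 0.405 for ART-Normal and 0.615 for Control-AI. Named members were, by rule, up to 10 with the largest non-overlapping change to each tissue, the most abundant of each kind of carrier, the SLC3 genes, SLC38A9, the 3 highest and 3 lowest non-overlapping changes with conception, the 3 most and least variable per tissue, and those overlapping a more abundant gene on the other strand; from each related list, up to 4 with the largest change. Others are named with 1 or 2 values, or because they were singled out after their values were seen (SLC43A3 and the members raised in Control-AI 2). Outside the rule, ASNS is named as 1 of the 2 genes of its list that were higher in muscle. The members, lists and markers were chosen with earlier results of these data known. Alternatives were other scalings, filters and tests (DESeq2 1.42.0), left-out fetuses and fetus as a block. A few genes are not reported here. Procedures were tested on simulated data. Python 3.11.15, pandas 2.3.3 and Matplotlib 3.10.9 made tables and plots.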

Additional observations from a re-analysis of the deposited data

Results flagged for a closer look

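A single fetus lay far from the other 3 of the ART-Normal group for 6 of 66 gene and tissue combinations tested with Dixon's ratio, where chance gives about 1 in 20. The share over all genes is not given here, so that this count is a description and not a trait of the members. In liver, SLC38A6, an intracellular SLC38 carrier, was at 20.9 CPM in ART-Normal 2 against 11.8 to 12.2 CPM in the others. ART-Normal 1 was the low library for the GABA carrier SLC6A11, at 139 CPM against 244 to 264.5 CPM, and for the creatine carrier SLC6A8, at 23.2 CPM against 32.5 to 32.9 CPM. In muscle, the heavy chain SLC3A2 was at 43.9 CPM in ART-Normal 3 against 37.7 to 38.2 CPM, and the arginine carrier SLC7A2 at 46.4 CPM in ART-Normal 4 against 56.5 to 57.9 CPM. The light chain SLC7A6 was at 70.3 CPM in ART-Normal 1 against 61.03 to 61.8 CPM, and it overlaps SLC7A6OS on the other strand. All 4 fetuses of the group are affected at least once. Leaving out the fetus concerned moved the log2 fold change with conception from 0.40 to 0.15 for SLC38A6, from -0.25 to -0.07 for SLC6A11, from -0.35 to -0.25 for SLC6A8, from 0.53 to 0.48 for SLC3A2, from -0.21 to -0.14 for SLC7A2 and from -0.10 to -0.15 for SLC7A6, none of which passed the test.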

How the results depend on the processing

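Of 987 values of named genes under the alternatives, 959 kept their direction and their side of the threshold, 11 no longer passed, 10 newly passed and 7 changed sign. Sign changes concerned genes that did not pass: SLC1A2 between tissues was -0.04 with library size alone, -0.02 with ART-Normal 1 to 3 and -0.65 in the Control-AI fetuses only, and -0.07 to 0.25 on leaving out a fetus, and SLC38A6 in the difference between tissues was -0.11 to 0.17 on leaving out a fetus. The cause was not tested. The number of members called between tissues was 38 to 41 when a fetus was left out. It was 30 with at least 10 counts in every library, 31 with 5 CPM or more in every library of 1 group, 29 in the Control-AI fetuses only and 45 without a filter, and those higher in muscle numbered 9, 9, 8 and 19 in turn, since these settings test other numbers of genes or samples. In the Control-AI fetuses only, 7632 genes were called.

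For conception, liver members called were 1 by the likelihood ratio test and 1 by DESeq2. All genes called in liver were 88 and 56 by these tests, 8 with library size alone and 4 in the fit over 12 libraries. That scaling moved the median log2 fold change of all genes by 0.19 in liver and by 0.22 in the difference between tissues. In muscle they were 113 and 106, 0 with ART-Normal 1 to 3 and 0 in the fit over 12 libraries, and for the difference between tissues 80 and 32. Leaving out a fetus gave 0 to 3 members and 0 to 833 genes in liver, 0 to 6 and 0 to 1388 in muscle, and 0 to 2 and 0 to 226 for the difference. The highest counts were those without Control-AI 4, which leaves Control-AI 2 as the lone control, assumed to vary like the other group: SLC1A2, SLC7A6 and SLC3A1 were then called in liver, SLC3A1, SLC3A2, SLC6A4, SLC6A14, SLC6A20 and SLC7A4 in muscle, and SLC6A4 and SLC7A6 in the difference. Without Control-AI 2, 0 members were called in either tissue.

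With fetus as a replicate block, 41 members and 12281 genes were called between tissues, SLC3A1 being the member added, and 0 members in the difference. For conception, the numbers shared by the groups belong to different fetuses; a block on them called 0 members and 6 genes in liver and 92 in muscle. The 2 controls, low counts for SLC6A2, SLC6A11, SLC7A10 and SLC38A11, and counting over overlapping genes limit these results.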
